A study of Homo sapiens with 2 samples.

Results

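The genes described here encode the enzymes and scaffold subunits of 2 chromatin complexes, NuRD and COMPASS, and the remaining histone deacetylases. They were taken by symbol from the deposited tables and comprised 39 of 56638 genes, namely 12 NuRD subunits, 12 COMPASS subunits, 9 other histone deacetylases (HDACs) and 6 sirtuins. RNA-seq had been performed in TFK1, an established human cholangiocarcinoma cell line, with 1 library of negative control cells (shNC) and 1 library of cells with knockdown of MBD2 (shMBD2). According to the study's methods, shRNA constructs were delivered by lentivirus and transduced cells were selected with puromycin or G-418, and both libraries carry an shRNA name in their labels. The labels give no treatment and do not say which of the study's MBD2 shRNAs the knockdown library carries. With a single library on each side, none of the differences could be set against replicates, and no p-value is given. The comparison asks how transcript levels differ when MBD2 is knocked down.

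As background, MBD2 binds methylated CpG dinucleotides and joins NuRD, which combines an ATP-dependent nucleosome remodeler with the deacetylases HDAC1 and HDAC2 and is best known for gene repression. COMPASS-type complexes methylate lysine 4 of histone H3, a mark of active promoters and enhancers. In them a KMT2 or SETD1 methyltransferase sits on a shared core of WDR5, RBBP5, ASH2L and DPY30. HDACs of classes I, II and IV need zinc to remove acetyl groups from histones and other proteins, whereas sirtuins need NAD+.

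The transcripts of both complexes were present at similar levels in the MBD2 knockdown and the control library. HDAC10 had too few reads to compare. Of the 38 genes that reached a sum of 10 counts in the 2 libraries, 28 differed by no more than 1.2-fold. HDAC9 alone differed by more than 2-fold. Of all 17545 genes with that sum, 9448 differed by no more than 1.2-fold and 1851 by more than 2-fold. At 100 counts or more, 27 of 36 members and 7960 of 11972 genes differed by no more than 1.2-fold. HDAC5, HDAC6 and HDAC9 and the sirtuins SIRT1 and SIRT5 were more than 1.2-fold lower in shMBD2, as were CHD3 and GATAD2B of NuRD. WDR5 and MEN1 of COMPASS and GATAD2A of NuRD were more than 1.2-fold higher. These 7 lower and 3 higher genes made up 18.4% and 7.89% of the 38, against 23.7% and 22.4% of all genes.

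Levels are given in TPM (a transcript level that corrects for gene length and depth) and differences as log2FC, the log2 ratio of shMBD2 over shNC after scaling the read counts with TMM factors and adding a prior of 0.5 counts. The interval after each log2FC is a 95% exact Clopper-Pearson interval from the split of the gene's reads between the libraries. It covers counting error only and not the variation between cultures. The counts summed to 14728814 in shMBD2 and 14467406 in shNC, of which the 39 genes took 0.300% and 0.312%. MBD2 itself had 365 counts in shMBD2 and 1013 in shNC, a log2FC of -1.48, in the direction of its label. Of 8 biliary epithelial markers all had at least 10 counts, with KRT8 at 3006 TPM in shMBD2 and 3890 in shNC, and EPCAM at 11.3 and 16.9. KRT19, another biliary keratin, was at 15.0 and 9.04 TPM. The summed count of 8 leukocyte markers was 2 in shMBD2 and 5 in shNC, and that of 4 endothelial markers was 0 and 1. Of 6 fibroblast markers, COL1A1 had 308 and 124 counts, LUM had 5 and 6, and the others had 6 or fewer in each library. In bulk RNA, fewer cells of a type and less RNA per cell cannot be told apart.

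Since MBD2 binds methylated CpG dinucleotides, start-site windows of 3 of the genes past 1.2-fold are shown first. The sequence does not show whether a CpG is methylated. RefSeq windows (GRCh38.p14, 250 bases before to 50 after an annotated start) were matched by symbol for 33 of the 39 genes, with 54 windows in all because 12 genes had several. No window was matched for ASH2L, CHD5, DPY30, HDAC5, SETD1B and SIRT7. The motif counted was CG, which reads the same on both strands. In 31 of the 33 genes the window with the most CG held more than the median of all 35116 windows, which was 14, although taking the richest of several windows favors these genes. A window with at least 30 CG was found for 22 of the 33 genes, against 22.4% of all windows, and 96.0% of all windows held at least 1. The windows below are the ones richest and poorest in CG for HDAC9, the gene with the lowest log2FC, the richest for HDAC6, which was also lower, and the richest for WDR5, the gene with the highest log2FC. Each CG is in capitals. SIRT5 and SIRT1, which differed more than WDR5 and are not printed, held 37 and 39 CG in their richest windows. Of the remaining genes past 1.2-fold with a window, GATAD2A held 41, GATAD2B 26 and MEN1 25 in the richest. CHD3 held 10 in its only window, fewer than the median of 14.
HDAC9, chr7:18086575-18086874, plus strand, 41 CG: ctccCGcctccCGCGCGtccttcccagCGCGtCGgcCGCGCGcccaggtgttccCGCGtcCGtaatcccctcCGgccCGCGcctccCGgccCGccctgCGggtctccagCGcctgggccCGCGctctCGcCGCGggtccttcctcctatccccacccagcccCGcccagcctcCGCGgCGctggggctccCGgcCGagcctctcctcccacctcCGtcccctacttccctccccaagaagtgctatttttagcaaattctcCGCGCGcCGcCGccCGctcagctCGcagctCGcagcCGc
HDAC9, chr7:18509020-18509319, plus strand, 0 CG: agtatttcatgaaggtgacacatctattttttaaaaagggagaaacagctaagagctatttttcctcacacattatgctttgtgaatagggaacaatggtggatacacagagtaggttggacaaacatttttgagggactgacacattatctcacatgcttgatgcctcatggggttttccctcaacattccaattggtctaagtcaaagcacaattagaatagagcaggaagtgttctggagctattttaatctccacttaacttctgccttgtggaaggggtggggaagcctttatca
HDAC6, chrX:48801699-48801998, plus strand, 36 CG: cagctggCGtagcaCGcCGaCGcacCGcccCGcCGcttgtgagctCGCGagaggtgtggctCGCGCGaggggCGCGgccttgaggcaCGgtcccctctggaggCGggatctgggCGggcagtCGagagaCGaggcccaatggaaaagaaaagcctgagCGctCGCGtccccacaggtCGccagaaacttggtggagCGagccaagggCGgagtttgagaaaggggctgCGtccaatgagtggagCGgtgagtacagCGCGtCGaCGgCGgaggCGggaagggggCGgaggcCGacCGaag
WDR5, chr9:134136171-134136470, plus strand, 45 CG: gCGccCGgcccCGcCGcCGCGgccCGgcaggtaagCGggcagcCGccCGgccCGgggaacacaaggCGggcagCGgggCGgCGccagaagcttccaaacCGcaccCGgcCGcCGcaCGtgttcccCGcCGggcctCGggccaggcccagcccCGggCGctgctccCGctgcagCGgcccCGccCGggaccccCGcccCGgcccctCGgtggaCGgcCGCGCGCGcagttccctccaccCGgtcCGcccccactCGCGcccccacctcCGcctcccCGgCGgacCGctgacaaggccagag
The richest windows of HDAC9 and HDAC6, which were lower in shMBD2, and of WDR5, which was higher, are all dense in CG. The poorest windows of WDR5 and HDAC6 held 6 and 21 CG. DNA methylation and MBD2 binding were not analyzed here, and gene counts do not tell which start of HDAC9, HDAC6 or WDR5 was used.

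The 5 highest levels in shNC were those of NuRD genes. RBBP7 was first at 193 TPM, followed by CHD3 at 152, HDAC1 at 146, CHD4 at 112 and MTA2 at 111. RBBP7 and its paralog RBBP4 encode histone-binding chaperones, which NuRD shares with other complexes. DPY30 led the COMPASS genes at 82.2 TPM, SIRT1 the sirtuins at 48.5 and HDAC3 the other HDACs at 47.4. The median over the 38 genes was 26.3 TPM in shNC and 24.9 in shMBD2, whereas over all 17545 genes with at least 10 counts it was 12.2 and 12.0. The lowest levels belonged to CHD5 (0.819 TPM in shNC), HDAC9 (0.758) and HDAC10 (0.0668). HDAC10 lies largely within another gene on the same strand, as given below, so its level is uncertain. The first place was the same in shMBD2, where HDAC1 at 131 TPM, CHD4 at 126 and CHD3 at 123 followed. The largest moves down this order were those of HDAC6, from place 14 to 21, and SIRT3, from 19 to 24.

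**Figure D1:**
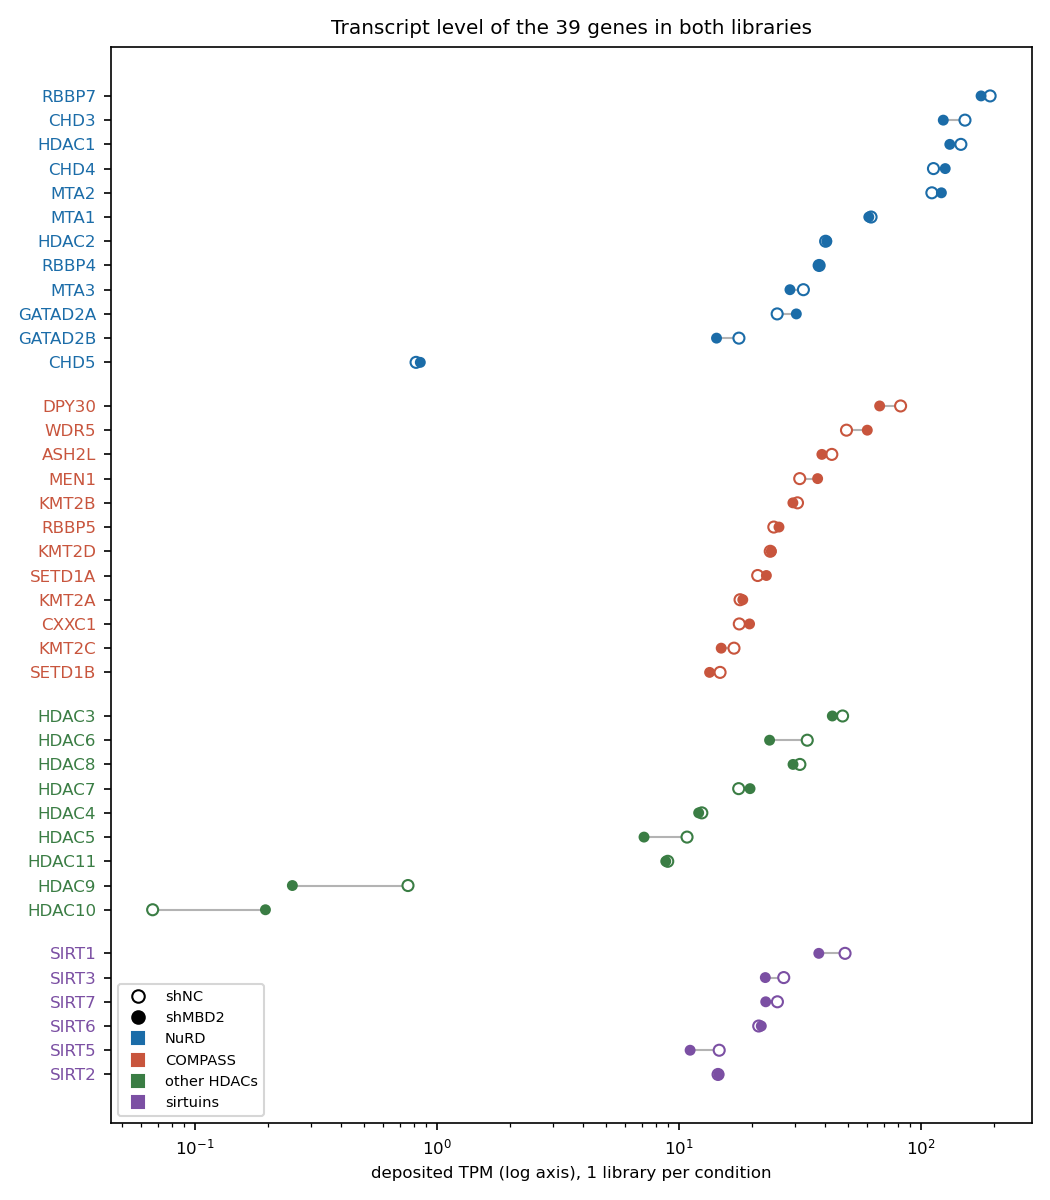
Deposited TPM (log axis) of the 39 genes in shNC (open circles) and shMBD2 (filled circles), by complex and sorted by the level in shNC, with 1 library per condition. The circles nearly coincide for most NuRD and COMPASS genes, such as RBBP4 at 37.9 TPM in both libraries, and lie apart for HDAC5, HDAC6 and HDAC9.

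Among the 12 genes of NuRD, 6 were higher and 6 lower with a median log2FC of 0.012, and the sign of this median changed with the scaling (-0.016 to 0.021), against a median of -0.0082 over all genes with at least 10 counts. Their counts summed to 25564 in shMBD2 and 26061 in shNC, a log2FC of -0.037 (interval -0.062 to -0.012). The nearly level sum covered differences of opposite direction between paralogs.

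CHD3 and CHD4 encode the alternative ATP-dependent remodelers of NuRD. CHD3 had 5191 counts in shMBD2 and 6218 in shNC (log2FC -0.27, interval -0.32 to -0.22). CHD4 had 4730 and 4120 (log2FC 0.19, interval 0.13 to 0.25). CHD3 was thus above CHD4 in shNC, with 1.35 times its TPM, and level with it in shMBD2, at 0.982 times. The difference between their log2FC values was -0.46, with a counting interval (normal approximation) from -0.54 to -0.38. The third paralog, CHD5, is known mainly from neural tissue and had 47 and 44 counts.

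GATAD2A and GATAD2B encode the p66 subunits, which link MBD2 or MBD3 to the remodeler. GATAD2A had 1007 counts in shMBD2 and 818 in shNC (log2FC 0.29, interval 0.16 to 0.43), and GATAD2B had 610 and 736 (log2FC -0.28, interval -0.44 to -0.12). Their summed level was 44.8 TPM in shMBD2 and 43.1 in shNC, while the share of GATAD2A in it was 68.1% and 59.0%. GATAD2A fell short of 1.2-fold on the TPM scales (0.25 and 0.26), and CHD3 did with DESeq2 size factors (-0.26). The log2FC values of the pair differed by 0.57 (counting interval 0.37 to 0.77).

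The MTA proteins form the scaffold on which the deacetylases dimerize. MTA2 had 2120 counts in shMBD2 and 1887 in shNC (log2FC 0.16, interval 0.069 to 0.25), MTA1 had 999 and 995 (log2FC -0.0031) and MTA3 had 957 and 1060 (log2FC -0.16, interval -0.28 to -0.029). MTA2 made up 57.5% of the summed MTA TPM in shMBD2 and 53.9% in shNC. HDAC1 and HDAC2 are the catalytic deacetylase subunits. HDAC1 had 1808 and 1959 counts (log2FC -0.12, interval -0.22 to -0.032), and HDAC2 had 2300 and 2217 (log2FC 0.044, interval -0.041 to 0.13). HDAC1 held 76.3% of their summed TPM in shMBD2 and 78.4% in shNC. RBBP7 had 4076 and 4330 counts (log2FC -0.096, interval -0.16 to -0.034) and RBBP4 had 1719 and 1677 (log2FC 0.027, interval -0.071 to 0.12). Paralogs share stretches of sequence, and how reads matching several genes were counted is not given in the sources used here.

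**Figure D2:**
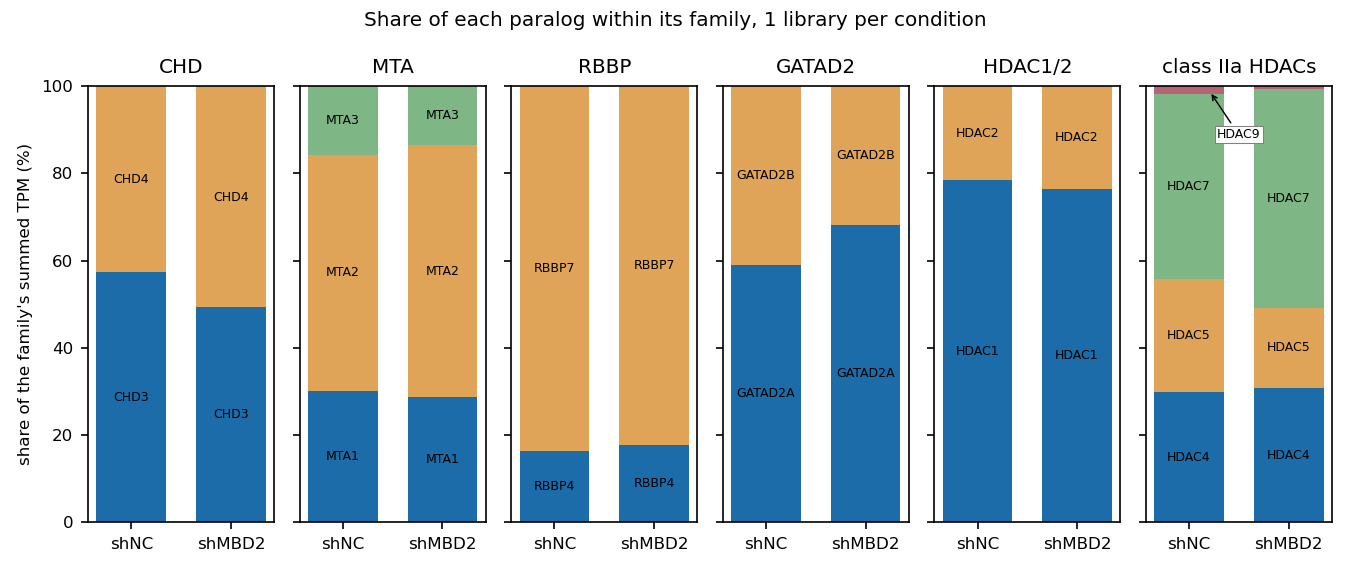
Share (%) of each paralog in the summed TPM of its family in shNC and shMBD2, with 1 library per condition; CHD5 is too low to be seen, and HDAC9 is the thin band at the top of the class IIa HDACs. CHD3 took 57.3% of its family in shNC and 49.4% in shMBD2, and GATAD2A 59.0% and 68.1%, whereas HDAC1 took 78.4% and 76.3% of the HDAC1/2 sum.

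MBD2 and MBD3 are the alternative CpG-binding-domain subunits of NuRD. MBD3 had 432 counts in shMBD2 and 472 in shNC (log2FC -0.14, interval -0.33 to 0.055), so its TPM was 1.74 times that of MBD2 in shMBD2 and 0.683 times in shNC. Of 10 genes listed as NuRD partners, 1 was more than 1.2-fold higher and 2 were more than 1.2-fold lower. Of all genes with at least 10 counts, 22.4% and 23.7% were, and of those with at least 100, 16.5% and 17.0%. The list had a median log2FC of -0.058. It includes MBD2, the knockdown target, which is 1 of the 2 lower genes. Among the partners with at least 100 counts, SALL1, a zinc finger factor that recruits NuRD, was highest with 165 and 130 counts (log2FC 0.33, interval -0.0053 to 0.68). CDK2AP1, a small NuRD subunit, followed with 339 and 281 (log2FC 0.26). The lowest were MBD2 and PWWP2A, a chromatin reader, with 350 and 392 counts (log2FC -0.17). SALL4 had 23 and 45 counts (log2FC -0.96, interval -1.77 to -0.22), and the partner list holds no other gene more than 1.2-fold lower besides MBD2.

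The 12 COMPASS subunits had a median log2FC of 0.053, with 7 higher and 5 lower. Their counts summed to 12823 in shMBD2 and 12510 in shNC (log2FC 0.027, interval -0.0089 to 0.062). None was more than 1.2-fold lower with TMM scaling, but DPY30 passed that fold with total counts (log2FC -0.28), upper-quartile factors (-0.27) and both TPM scales (-0.28 and -0.29). MEN1 was more than 1.2-fold higher with TMM scaling and not with total counts (0.26) or TPM (0.24 with either pseudocount).

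WDR5, the WD40-repeat protein that holds methyltransferase and core together, had 1079 counts in shMBD2 and 863 in shNC, or 59.9 and 49.1 TPM. The log2FC of 0.31 (interval 0.18 to 0.44) was the highest of the 38 genes, and 13.1% of the 11972 genes with at least 100 counts had a higher one. The other core subunits did not share this value. RBBP5 had 651 and 604 counts (log2FC 0.099, interval -0.063 to 0.26) and ASH2L had 687 and 736 (log2FC -0.11, interval -0.26 to 0.044). DPY30, a small dimeric adaptor, had 585 and 696 (log2FC -0.26, interval -0.42 to -0.099), just inside 1.2-fold on this scale.

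The 6 methyltransferases differed little. KMT2A had 1738 counts in shMBD2 and 1651 in shNC (log2FC 0.065, interval -0.033 to 0.16) and its closest paralog KMT2B had 1429 and 1455 (log2FC -0.035). KMT2D, which methylates enhancers, had 2667 and 2575 (log2FC 0.042), while KMT2C, its paralog, had 1453 and 1599 (log2FC -0.15, interval -0.25 to -0.044). SETD1A, the catalytic subunit of one SETD1 complex, had 905 and 812 (log2FC 0.15, interval 0.0093 to 0.29), and SETD1B had 626 and 674 (log2FC -0.12). Summed over the 6 genes, the counts were 8818 and 8766, a log2FC of -0.0003 (interval -0.043 to 0.043), so that the total reads of the methyltransferases were nearly equal in both libraries. Per length, WDR5 stood at 2.75 times the TPM of KMT2A in shNC and 3.27 times in shMBD2.

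MEN1 encodes menin, which belongs to the KMT2A and KMT2B complexes, and had 675 counts in shMBD2 and 555 in shNC (log2FC 0.27, interval 0.11 to 0.44). CXXC1 encodes the CpG-binding subunit of the SETD1 complexes, which recognizes unmethylated CpG, and had 328 and 290 (log2FC 0.17, interval -0.064 to 0.40). Of 11 genes listed as COMPASS partners, 1 was more than 1.2-fold higher and 1 lower, against 22.4% and 23.7% of all genes. All 11 had at least 100 counts, and at that depth the shares of all genes were 16.5% and 17.0%. WDR82, a subunit of the SETD1 complexes, had 2191 and 1732 counts (log2FC 0.33, interval 0.24 to 0.42), and PAGR1, of the KMT2C and KMT2D complexes, had 417 and 349 (log2FC 0.25). PSIP1, the chromatin tether of menin and KMT2A, had 3639 and 4388 (log2FC -0.28, interval -0.34 to -0.22), and KANSL1 had 1047 and 1215 (log2FC -0.22). The list as a whole was balanced, with 6 genes higher, 5 lower and a median of 0.021.

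The 9 HDACs outside NuRD include HDAC10, which had 3 counts in shMBD2 and 1 in shNC and is not compared. In the tables' coordinates 95.7% of HDAC10 lies within MAPK12 on the same strand, which had 403 and 309 counts, and how reads on 2 genes were assigned is not given in the sources used here. The other 8 had a median log2FC of -0.090, with 2 higher and 6 lower. Their counts with those of HDAC10 summed to 3251 and 3600, a log2FC of -0.16 (interval -0.22 to -0.087).

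The class IIa enzymes HDAC4, HDAC5, HDAC7 and HDAC9 shuttle between nucleus and cytoplasm and act with the transcription factors of the MEF2 family. HDAC9 had 14 counts in shMBD2 and 41 in shNC, or 0.252 and 0.758 TPM, which gave a log2FC of -1.53 (interval -2.55 to -0.65). On the scale of log2(TPM + 1), which understates differences of low genes, its value was -0.49. HDAC5 had 218 and 320 counts, or 7.16 and 10.8 TPM (log2FC -0.56, interval -0.82 to -0.31). Of the genes with at least 100 counts, 4.67% had a lower log2FC than HDAC5. HDAC7 had 720 and 630 counts (log2FC 0.18, interval 0.028 to 0.34) and HDAC4 had 618 and 621 (log2FC -0.016). HDAC7 held 50.2% of the summed TPM of the class in shMBD2 and 42.4% in shNC, and HDAC5 held 18.3% and 25.9%.

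HDAC6, the cytoplasmic deacetylase of tubulin, had 653 counts in shMBD2 and 911 in shNC, or 23.6 and 33.8 TPM. This gave a log2FC of -0.49 (interval -0.64 to -0.34), and 6.23% of the genes with at least 100 counts had a lower one. The class I enzymes outside NuRD were closer to level. HDAC3, the deacetylase of the NCoR and SMRT corepressors, had 481 and 517 (log2FC -0.11, interval -0.30 to 0.069) and HDAC8 had 395 and 411 (log2FC -0.066). HDAC11, the only class IV enzyme, had 149 and 148 (log2FC 0.0009, interval -0.34 to 0.34).

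Partners of the deacetylases in the SIN3, CoREST, NCoR and related complexes were read as a list of 31 genes, which had a median log2FC of -0.048, with 13 higher and 18 lower. Of these, 5 were more than 1.2-fold higher and 6 more than 1.2-fold lower, against 22.4% and 23.7% of all genes with at least 10 counts. The list did not stand above that background in either direction. At 100 counts or more, which 30 of the 31 reached, the shares of all genes were 16.5% and 17.0%. RCOR2, a CoREST scaffold, had 94 counts in shMBD2 and 63 in shNC (log2FC 0.56, interval 0.093 to 1.05), and DNTTIP1, of a mitotic deacetylase complex, had 269 and 198 (log2FC 0.43, interval 0.16 to 0.71). BRMS1L had 249 and 343 (log2FC -0.47, interval -0.71 to -0.23) and ARID4A had 510 and 627 (log2FC -0.31, interval -0.48 to -0.14). Both of the latter are known as SIN3 complex subunits.

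The 6 sirtuins had the lowest median of the 4 groups, a log2FC of -0.18, with 2 higher and 4 lower. Their counts summed to 2522 in shMBD2 and 2888 in shNC (log2FC -0.20, interval -0.28 to -0.13). SIRT1, the nuclear enzyme that deacetylates p53 and histones, had 884 and 1106 counts, or 37.8 and 48.5 TPM (log2FC -0.33, interval -0.46 to -0.20). SIRT5, the mitochondrial enzyme that removes succinyl and malonyl groups, had 249 and 320, or 11.1 and 14.6 TPM (log2FC -0.37, interval -0.62 to -0.13). SIRT3, the main mitochondrial deacetylase, had 341 and 396 (log2FC -0.22, interval -0.44 to -0.012). The lower values thus included nuclear and mitochondrial enzymes. The nuclear SIRT6 had 205 and 195 counts (log2FC 0.063), the nucleolar SIRT7 had 449 and 489 (log2FC -0.13, interval -0.32 to 0.056) and the cytoplasmic SIRT2 had 394 and 382 (log2FC 0.036). SIRT4, the sirtuin outside the 6, is mitochondrial and had 5 and 16 counts (log2FC -1.59, interval -3.49 to -0.17).

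**Figure D3:**
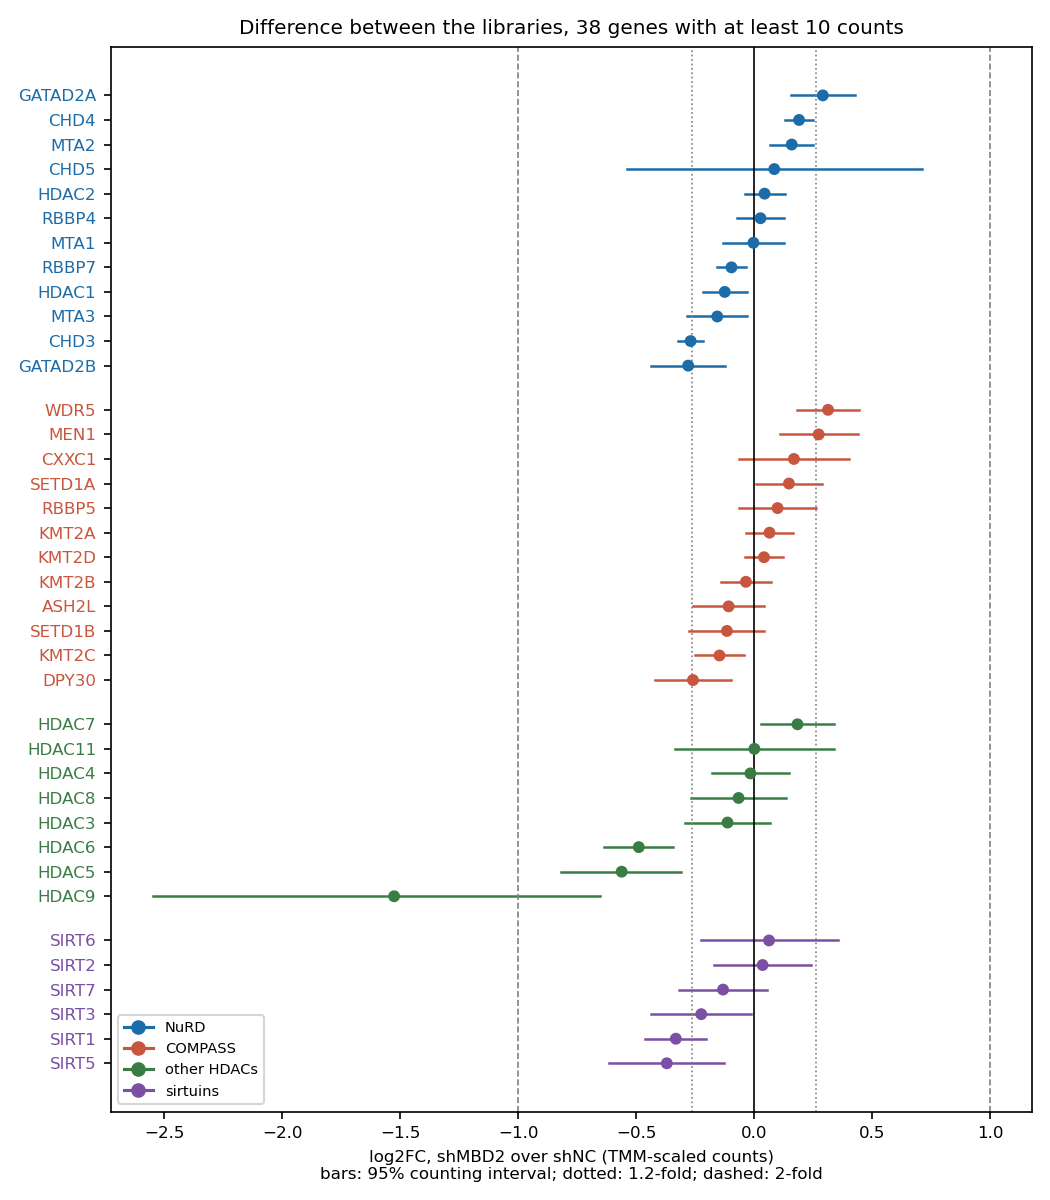
Log2FC of shMBD2 over shNC for the 38 genes with at least 10 counts, by group, with 95% counting intervals as bars and dotted and dashed lines at 1.2-fold and 2-fold. Most points lie between the dotted lines, HDAC5, HDAC6 and HDAC9 lie furthest to the left, and WDR5 at 0.31 lies furthest to the right.

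The shares of members past either fold did not exceed those of all genes. Of the 38 genes, 3 (7.89%) were more than 1.2-fold higher and 7 (18.4%) more than 1.2-fold lower, whereas 22.4% and 23.7% of all 17545 genes were. Those 7 were HDAC9, HDAC5, HDAC6, SIRT5, SIRT1, GATAD2B and CHD3. No member was more than 2-fold higher and 1 (2.63%) was more than 2-fold lower, against 5.48% and 5.07% of all genes. Genes with few reads scatter more, and among the genes with at least 100 counts the shares past 1.2-fold were 16.5% higher and 17.0% lower, beside 3 (8.33%) and 6 (16.7%) of the 36 members at that depth. At that depth the shares past 2-fold were 1.78% and 1.06%, beside none of the 36. The split past 1.2-fold moved with the scaling, since the deposited TPM (plus 0.1 or 1) gave 1 higher and 8 lower, and total counts gave 2 and 8. Both scalings lower the members' values relative to TMM. The shares of all genes under them are not given here, so these splits have no background beside them.

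The counting interval lay above 0 for 7 of the 38 members (18.4%) and below 0 for 13 (34.2%), against 19.7% and 18.4% of all genes. At 100 counts or more it lay above 0 for 7 of 36 (19.4%) and below for 12 (33.3%), against 24.4% and 22.7%. The share of members below 0 was thus above that of all genes, in contrast to the shares past a fold. These intervals narrow as reads increase, and 10 of the 20 members concerned differed by no more than 1.2-fold, among them RBBP7, HDAC1 and KMT2C. The median absolute log2FC of the 36 members was 0.14, and that of all genes with at least 100 counts was 0.17.

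**Figure D4:**
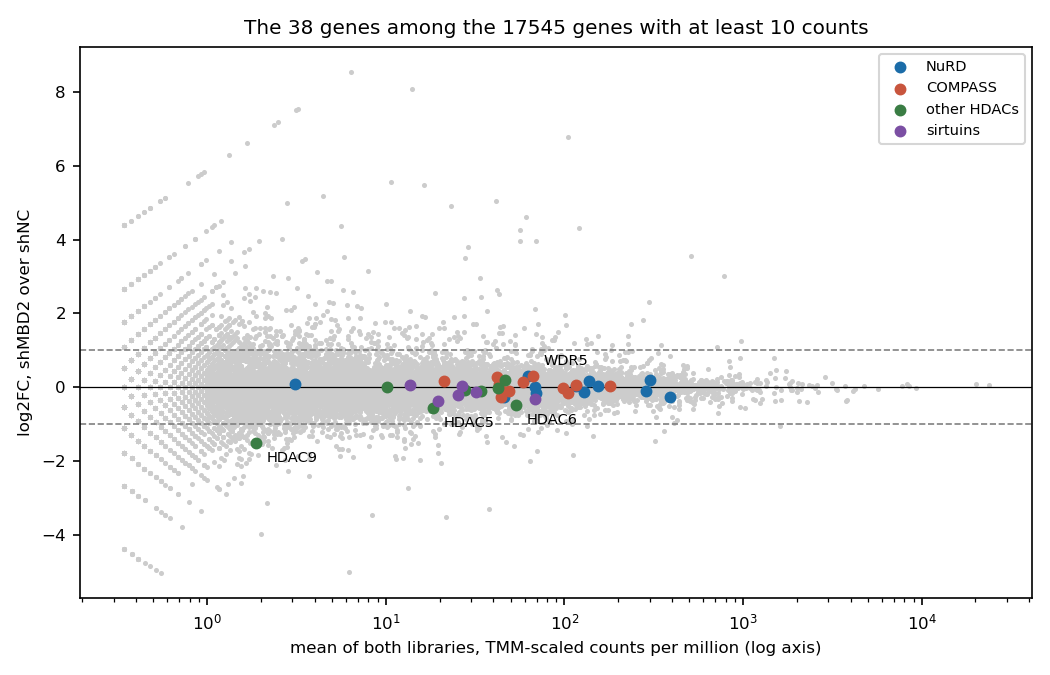
Log2FC of shMBD2 over shNC against the mean of TMM-scaled CPM in both libraries (log axis) for all 17545 genes with at least 10 counts (gray), with the 38 members in color by group and dashed lines at 2-fold. All members but HDAC9 at -1.53 lie between the dashed lines.

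In GENCODE 29 (GRCh38), joined by Ensembl identifier, WDR5 (ENSG00000196363) spans 134135365 to 134159968 on chromosome 9, CHD3 (ENSG00000170004) 7884806 to 7912760 on chromosome 17, CHD4 (ENSG00000111642) 6570082 to 6614524 on chromosome 12, HDAC6 (ENSG00000094631) 48801377 to 48824982 on chromosome X and HDAC9 (ENSG00000048052) 18086949 to 19002416 on chromosome 7. The values are of whole genes. The submitters' notes name GRCh38.p13, but of the 39 starts printed in the tables only that of SIRT3 equals the start in GENCODE 29, so the tables' own coordinates are not printed here. By those coordinates, 14 members overlap another gene on the same strand and 25 one on the opposite strand. MEMO1 covers 83.4% of the length of DPY30 and had 72 and 61 counts, TEX22 covers 59.5% of MTA1 with 18 and 17, and MAFG covers 32.5% of SIRT7 with 1373 and 1198. TXLNG, on the opposite strand, covers 16.8% of RBBP7 and had 1080 and 807 counts. Whether counting used the strand is not given in the sources used here, so reads of these genes could be shared or left out, and their values are uncertain to that extent.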

How the data were processed

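RNA-seq libraries of TFK1 cells with knockdown of MBD2 and of negative control cells, 1 each, were used. The authors deposited whole-number read counts per gene and TPM per gene. The submitters' processing notes name fastp, HISAT2 2.1.0, featureCounts, DESeq 1.18.1 and GRCh38.p13. The annotation, strandedness and use of multi-mapping reads are not given in the sources used here. Lines holding no complete gene record (46 in each table) were dropped. Symbols repeated on several Ensembl identifiers with equal values, including 6 members, were kept once. Where the values of a repeated symbol differed, each row was kept.

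Counts were scaled with TMM in edgeR 4.0.16 (R 4.3.3). Log2FC used a prior of 0.5 counts and required a sum of 10 or more counts in the 2 libraries. Intervals were computed with scipy 1.17.1. No test was run, since no spread between replicates can be estimated. Members, groups, partner lists and the folds of 1.2 and 2 were chosen with earlier results of these data known, and the windows printed were chosen after their values were seen. Genes named from partner lists were MBD2, MBD3 and, per list, the 2 highest and 2 lowest log2FC with at least 100 counts, besides SIRT4; SALL4, KDM1B and KRT19 were named after their values were seen. Alternatives were DESeq2 1.42.0 size factors, total counts, upper-quartile factors, a prior of 2, log2 of TPM plus 0.1 or 1, other count minimums, a fold of 1.5 and shares of read counts in place of TPM. The scripts were tested on simulated counts.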

Additional observations from a re-analysis of the deposited data

How the results depend on the processing

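The median log2FC of each group ranged, over the reported setting and 8 alternatives, from -0.016 to 0.021 for NuRD, 0.024 to 0.062 for COMPASS, -0.12 to -0.066 for the other HDACs and -0.21 to -0.17 for the sirtuins. The sign of the NuRD median therefore depends on the setting. Of 228 values of single genes under an alternative, 227 stayed within the gene's counting interval; the other was HDAC9 with log2 of TPM plus 1, at -0.49. The sign changed only for MTA1, RBBP4 and HDAC11, which were within 0.03 of 0. The 3 members more than 1.2-fold higher became 1 with log2 of TPM plus 1 or plus 0.1 and 0 at a fold of 1.5, and the 7 lower ones became 1 at a fold of 1.5. The shares of all genes under these settings are not given here. Relative to TMM, log2 differences in TPM without a pseudocount were shifted by -0.028, equally for all 38 members compared. The log2 of 1.2 is 0.263. GATAD2A had 0.291 with TMM and 0.254 or 0.262 with TPM plus 1 or 0.1. MEN1 had 0.273 with TMM and 0.24 with either pseudocount, and WDR5 stayed above 0.263 at 0.28. The separate part of the pseudocounts was not tested. With at least 1 count, HDAC10 (3 and 1 counts) added 1 member past 2-fold higher. HDAC9 was no longer past 2-fold lower with log2 of TPM plus 1 (0 members) and was left out at 100 counts or more (0 members). The 8 changes in paralog shares, with read counts in place of TPM, and the summed counts under 3 other scalings moved by less than their counting intervals. The shares of all genes with at least 100 counts were added after seeing the data. No paired analysis was possible because shMBD2 and shNC have a single library each, and for the same reason no library could be left out. Differences near 1.2-fold cannot be set against the variation between cultures, which was not measured, and the depth leaves CHD5, HDAC9 and HDAC10 poorly determined.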

Other observations

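The enzymes that oppose the 2 complexes were also present. H3K4 demethylases, which remove the mark that COMPASS writes, were higher in shMBD2 in the 5 genes listed with TMM scaling, though KDM5A was lower in TPM (32.6 in shMBD2 and 33.1 in shNC). Their median log2FC was 0.22, and 2 of the 5 were more than 1.2-fold higher, against 22.4% of all genes with at least 10 counts and 16.5% of those with at least 100. Of all 17545 genes, 8582 were higher. KDM5B had 1587 counts in shMBD2 and 1247 in shNC (log2FC 0.34, interval 0.23 to 0.45), and KDM1A (LSD1), which also works with NuRD and CoREST, had 2187 and 1772 (log2FC 0.29, interval 0.20 to 0.39). KDM5A had 2008 and 1987 (log2FC 0.0063), KDM5C had 2195 and 2103 (log2FC 0.053) and KDM1B had 566 and 484 (log2FC 0.22, interval 0.039 to 0.40). The intervals of KDM5A and KDM5C include 0. KDM1A is counted among the deacetylase partners as well.

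The 10 histone acetyltransferases, which counteract the deacetylases, had a median log2FC of -0.029, with 5 higher and 5 lower. KAT2B (PCAF) had 538 counts in shMBD2 and 688 in shNC (log2FC -0.36, interval -0.53 to -0.20). It was the only one of the 10 more than 1.2-fold lower, against 23.7% of all genes. All 10 had at least 100 counts, and of all genes at that depth 17.0% were lower by that fold. The paralog of KAT2B, KAT2A (GCN5), had 1018 and 938 (log2FC 0.11, interval -0.020 to 0.24). KAT6B had 534 and 621 (log2FC -0.23), and KAT7 had 925 and 897 (log2FC 0.035).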
